A study of Mus musculus with 3 samples.

Results

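Vascular endothelial cells of the mouse colon were picked from 3 single-cell libraries by their own transcripts. A barcode was taken when Cdh5, Flt1, Plvap, Ptprb, Egfl7 and Podxl together had at least 3 unique molecular identifiers (UMIs, 1 per captured transcript), Ptprc (the gene of CD45) had 0, Epcam with Krt8 had at most 1, and Col1a1 with Col3a1 had at most 2. Barcodes entered when they held 500 UMIs and 200 genes or more and their mitochondrial share did not pass 10%; 238 of these 19109 barcodes met the rule. Since these values chose the cells, the levels of the 6 genes describe the choice and nothing is supported with them.

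The 3 groups were C57/BL6J mice with colitis after 1.5% dextran sulfate sodium (DSS) in the drinking water for 7 days and plain water for 3 days, and they differed in the antibody: rat IgG as the control, DATK32 or MECA-367, each 250 µg into the peritoneum 3 times a week. Single cells came from the lamina propria after a sort for viable CD45-positive cells, so the endothelial cells described here are cells that the sort was not set to keep. Background knowledge puts the antigen of DATK32 on the leukocyte, as integrin alpha4beta7, and that of MECA-367 on the endothelium, as MAdCAM-1; the sample labels pair the clones with 2 clinical antibodies the other way round, and groups are named by clone only. Each group was 1 library and the labels do not give its number of animals, so no difference below has a replicate check and no p-value was computed. Brackets hold exact 95% intervals, which cover counting error only. They are Clopper-Pearson for shares and Poisson for UMI sums. Those after a log2 ratio come from the binomial share of 1 count in both counts together, with no count added.

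Endothelium lines every vessel and differs along the vascular tree. Capillary cells handle fatty acids and exchange, arterial cells carry Notch and ephrin signals and elastic matrix genes, and postcapillary venules display P-selectin, E-selectin, VCAM-1, ICAM-1 and, in the gut, MAdCAM-1, on which leukocytes roll and stop before they leave the blood. MAdCAM-1 is the ligand that integrin alpha4beta7 binds on gut-homing lymphocytes, and inflammatory cytokines raise several of these adhesion molecules and chemokines on venules.

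Rat IgG gave 75 endothelial cells of 7367 kept barcodes, or 1.02% [0.802 to 1.27]. DATK32 gave 76 of 5852, or 1.30% [1.02 to 1.62]. MECA-367 gave 87 of 5890, or 1.48% [1.18 to 1.82]. The share was lowest in rat IgG and highest in MECA-367, all 3 intervals overlapped, and the largest ratio was 1.45-fold, a log2 ratio of 0.54 [0.07 to 1.0]. The cells held 81782, 96352 and 170781 UMIs in rat IgG, DATK32 and MECA-367, with medians of 865, 960 and 1272 UMIs per cell, so MECA-367 was the deepest. Fewer cells of a type in a library and a lower recovery through the sort cannot be told apart in these shares.

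The label held against markers that the rule did not read. Pecam1, the adhesion protein of endothelial junctions, had a UMI in 62.7%, 71.1% and 74.7% of the cells in rat IgG, DATK32 and MECA-367, against 0.145% to 0.667% of stromal barcodes picked by collagen UMIs and 5.78% to 6.22% of leukocyte barcodes, picked by a Ptprc UMI. Both reference classes were limited to at most 1 UMI of the 6 endothelial genes and to few UMIs of other lineages. Kdr, the main VEGF receptor, stood at 575, 654 and 691 CPM (the depth-scaled count, a gene's part of the summed UMIs of the set), against 1.81 to 2.36 CPM over all other kept barcodes. Near the threshold, 9, 7 and 4 cells had exactly 3 marker UMIs and were taken, and 8, 3 and 2 barcodes had 2 and were not. A Pecam1 UMI was found in 33.3%, 42.9% and 25% of those taken and in 62.5%, 33.3% and 50% of those not taken. On so few barcodes, Pecam1 did not separate the 2 sides of the threshold. Another 21, 16 and 15 barcodes had 3 or more marker UMIs but were dropped for Ptprc, epithelial or collagen UMIs.

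Some cells held RNA of another type. In MECA-367, 3 cells had 35.5% to 54.5% of their UMIs in immunoglobulin genes and held 15.2% of all endothelial UMIs of that library, whereas no other cell of any library passed 0.581%. One DATK32 cell held 270 of the 273 UMIs of S100a8 and S100a9, a neutrophil pair, in that library. UMIs of the pericyte and smooth muscle list reached 3 or more in 9, 8 and 10 cells (12%, 10.5% and 11.5%), a like share in the 3 libraries. Mesothelial genes were at 0 in all libraries, and the summed platelet genes stayed at or under 2 UMIs. Between libraries, 18 to 20 cell barcodes were shared per pair, with 1 endothelial cell among them in each pair. No barcode was removed as a doublet: Scrublet's own threshold marked 0, 3 and 0 barcodes, too few to have worked.

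**Figure D1:**
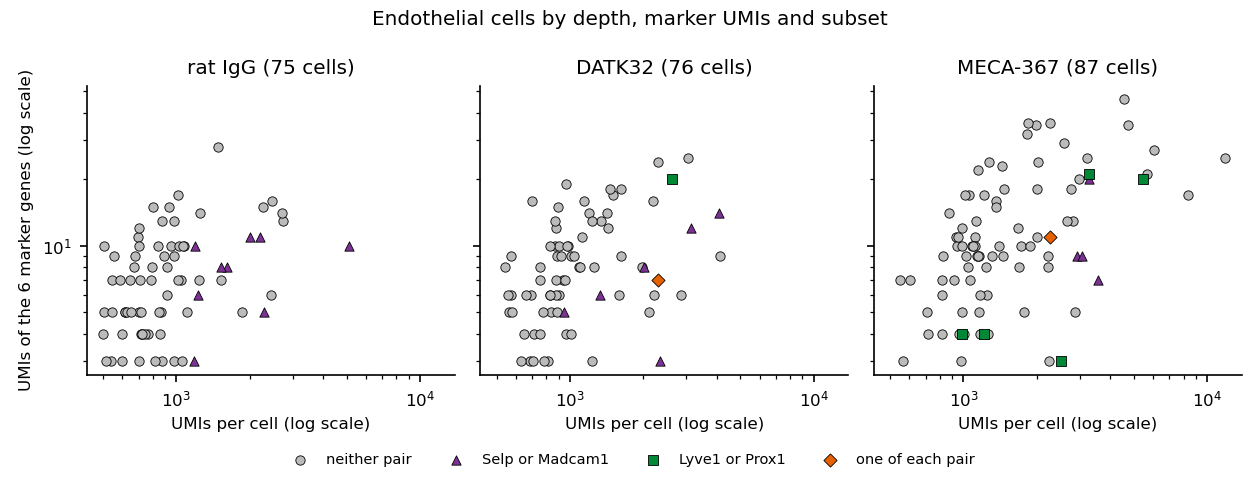
Each point is 1 endothelial cell; the horizontal axis gives its UMIs and the vertical axis the UMIs of the 6 genes used by the rule, both on log scales, with 1 panel per library. Symbols mark cells with a UMI of Selp or Madcam1, of Lyve1 or Prox1, of 1 gene of each pair, or of neither; MECA-367 holds 67 cells with 1000 UMIs or more, against 27 in rat IgG and 34 in DATK32.

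A pair of genes for each of 2 vessel types divided the cells: Selp (P-selectin) or Madcam1 for venules, and Lyve1 or Prox1 for lymphatics. A venular gene had a UMI in 9 of 75 rat IgG cells (12% [5.64 to 21.6]), 7 of 76 DATK32 cells (9.21% [3.78 to 18.1]) and 5 of 87 MECA-367 cells (5.75% [1.89 to 12.9]). The share ran from rat IgG down to MECA-367 with overlapping intervals, although depth ran the other way. Thinned to 500 UMIs per cell, the shares were 12%, 7.89% and 4.60%, again with overlapping intervals. Thinned to 1000 UMIs, a depth that 27, 34 and 67 of the cells reached, they were 33.3% [16.5 to 54.0], 14.7% [4.95 to 31.1] and 5.97% [1.65 to 14.6]. There the rat IgG and MECA-367 intervals were apart. In rat IgG the venular cells were the deeper ones, with a median of 1620 UMIs against 811.5 in cells with neither gene pair. All 9 reached 1000 UMIs, so the 33.3% sets them beside fewer of the other cells. As background, Selp had a UMI in at most 0.222% of stromal and 0.880% to 1.45% of leukocyte barcodes, and Madcam1 in at most 0.145% of stromal barcodes.

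A lymphatic gene had a UMI in 0 of 75 rat IgG cells (0% [0 to 4.80]), 2 of 76 DATK32 cells (2.63% [0.320 to 9.18]) and 6 of 87 MECA-367 cells (6.90% [2.57 to 14.4]). These intervals overlapped, and depth ran in the same order. Thinned to 500 UMIs per cell, the shares were 0%, 1.32% and 3.45%, also with overlapping intervals. One cell in DATK32 and 1 in MECA-367 had a gene of both pairs. A full lymphatic set was seen in 2 MECA-367 cells only: 1 held 10 Lyve1, 5 Mmrn1 and 58 Ccl21a UMIs, and the other 3, 6 and 19. Ccl21a is the chemokine that draws CCR7-bearing cells towards lymphatics. Of the other 6 labelled cells, 5 had 1 or 2 Prox1 UMIs and 1 had 1 Lyve1 UMI, none had Mmrn1 or Ccl21a, and 2 had 28 and 19 UMIs of Rgs5, a pericyte gene. In rat IgG, 1 venular cell held 5 Ccl21a UMIs.

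To show the regulatory sequence beside the expression, the 250 bases before the annotated start of 4 genes follow, from RefSeq on GRCm38.p6 and written on the strand of the gene: the pair that defined the venular cells, and Ubd and Cxcl10, which were high in them. Capitals mark matches on either strand to the NF-kB consensus and to a core of the interferon-stimulated response element (ISRE, a repeat of GAAA after a gap of any 2 bases). Madcam1 lies at chr10:79664309-79664558 on the plus strand, Selp at chr1:164115014-164115263 on the plus strand, Ubd at chr17:37193642-37193891 on the plus strand and Cxcl10 at chr5:92348890-92349139 on the minus strand.
Madcam1: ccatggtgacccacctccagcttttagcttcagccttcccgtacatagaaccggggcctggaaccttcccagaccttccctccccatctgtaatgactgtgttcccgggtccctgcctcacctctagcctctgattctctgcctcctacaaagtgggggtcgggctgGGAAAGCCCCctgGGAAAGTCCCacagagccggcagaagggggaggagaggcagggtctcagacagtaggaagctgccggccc
Selp: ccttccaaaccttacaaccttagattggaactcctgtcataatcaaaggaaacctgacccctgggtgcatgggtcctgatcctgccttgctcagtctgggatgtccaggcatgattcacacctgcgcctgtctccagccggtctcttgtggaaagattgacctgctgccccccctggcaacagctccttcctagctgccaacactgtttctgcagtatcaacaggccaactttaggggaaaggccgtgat
Ubd: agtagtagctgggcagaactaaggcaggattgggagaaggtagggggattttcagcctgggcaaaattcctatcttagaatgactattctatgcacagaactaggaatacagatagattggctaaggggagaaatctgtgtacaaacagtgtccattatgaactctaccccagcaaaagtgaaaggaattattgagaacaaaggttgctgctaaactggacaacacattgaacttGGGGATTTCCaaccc
Cxcl10: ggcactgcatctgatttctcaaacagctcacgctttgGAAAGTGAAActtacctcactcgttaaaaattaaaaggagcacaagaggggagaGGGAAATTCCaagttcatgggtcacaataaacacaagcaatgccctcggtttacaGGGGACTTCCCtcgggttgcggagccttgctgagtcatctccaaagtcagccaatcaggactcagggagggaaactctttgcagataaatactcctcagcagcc

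The Madcam1 window held 2 NF-kB matches, starting 83 and 70 bases before the start, Ubd held 1 and Cxcl10 held 3, of which the matches at 104 and 103 bases overlap. Cxcl10 also held 1 ISRE match. Selp had neither motif in this window, nor did Sele, Ackr1, Cxcl9 and Icam1, scanned in the same way. Over 32851 windows of this length, 7.25% held an NF-kB match and 2.98% an ISRE match; the matches are letters in a window and no binding was measured here.

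The 21 venular cells had higher CPM of Sele, Vcam1, Icam1, Cxcl9 and Cxcl10 than the 211 cells with neither gene pair. The venular cells were also deeper, with medians of 2271 and 983 UMIs, so levels are given as CPM of the summed UMIs of each set. As the cells were sorted by 2 of their genes, these contrasts are a description.

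Ackr1, the venular receptor that carries chemokines across the endothelium, had 78 UMIs in the venular cells and 1 in the others. It was found in 18 of 21 venular cells (85.7%) and in 1 of 211 others. Sele (E-selectin) had 31 and 4 UMIs, or 625 and 14.1 CPM, with a log2 ratio of 5.47 [3.97 to 7.43], and intervals were apart in 3 of 3 libraries. Vcam1, the ligand of integrin alpha4beta1, was at 1796 and 201 CPM, a log2 ratio of 3.16 [2.66 to 3.66] that was also seen in 3 of 3 libraries. Icam1, the ligand of leukocyte beta2 integrins, was at 1977 and 498 CPM (1.99 [1.60 to 2.37]). Lrg1 (2.90 [2.34 to 3.47]) and the venous transcription factor Nr2f2 (2.59 [1.63 to 3.54]) were higher in venular cells of 3 of 3 libraries too, with the Nr2f2 intervals apart in 2 of them. Other adhesion genes did not share that direction: Pecam1 was at 787 and 1183 CPM (-0.59 [-1.10 to -0.11]) and F11r, a junctional adhesion molecule, at 121 and 282 CPM.

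Several chemokine and cytokine transcripts were also at higher CPM in the venular cells, although Cxcl12, given below, was lower there. Cxcl9, which attracts CXCR3-bearing T cells, was at 4297 CPM in venular and 297 CPM in other cells, a log2 ratio of 3.86 [3.49 to 4.24] with intervals apart in 3 of 3 libraries. Cxcl10, a second CXCR3 ligand, was at 6416 and 745 CPM (3.11 [2.85 to 3.36]) and Cxcl1, which draws neutrophils, at 2058 and 469 CPM (2.13 [1.75 to 2.52]), each also in 3 of 3 libraries. Ubd, a ubiquitin-like protein induced by TNF and interferon-gamma, was at 1473 and 28.2 CPM and Il6 at 1029 and 113 CPM, with intervals apart in 2 of 3 libraries. Csf3, the growth factor of neutrophils, had 34 and 4 UMIs in all, 19 of them in the rat IgG and 15 in the MECA-367 venular cells, and 0 in every DATK32 cell. Single cells weigh on these sums: 1 rat IgG cell held 64 of the 144 Cxcl9 UMIs of its library, and 1 held 30 of 64 Ubd UMIs.

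Several capillary and arterial transcripts were low in venular cells, though not all: Aqp1, a water channel on the capillary list, was at 403 and 53.0 CPM, a log2 ratio of 2.93 [1.89 to 4.0] with intervals apart in 1 of 3 libraries. Rgs5, the pericyte gene and on neither count a capillary or arterial one, had 0 UMIs in venular and 222 in other cells. Its log2 ratio interval ended at -3.38, from UMI counts alone. The 222 UMIs lay in 30 of 211 cells (14.2%), and 21 venular cells are few for a gene found that seldom. Igfbp3, which binds insulin-like growth factors, had 1 and 419 UMIs, and Sparcl1, a matricellular protein, had 1 and 236. Cxcl12, the CXCR4 ligand of arterial endothelium, was at 80.7 and 974 CPM (-3.59 [-5.48 to -2.22]), and Fabp4, a fatty acid carrier of capillaries, at 1513 and 4826 CPM (-1.67 [-2.03 to -1.34]). Igfbp3, Sparcl1, Cxcl12 and Fabp4 were lower in 3 of 3 libraries with intervals apart. Cdh5 (VE-cadherin) stood at 726 and 770 CPM, with a log2 ratio of -0.08 [-0.63 to 0.43].

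**Figure D2:**
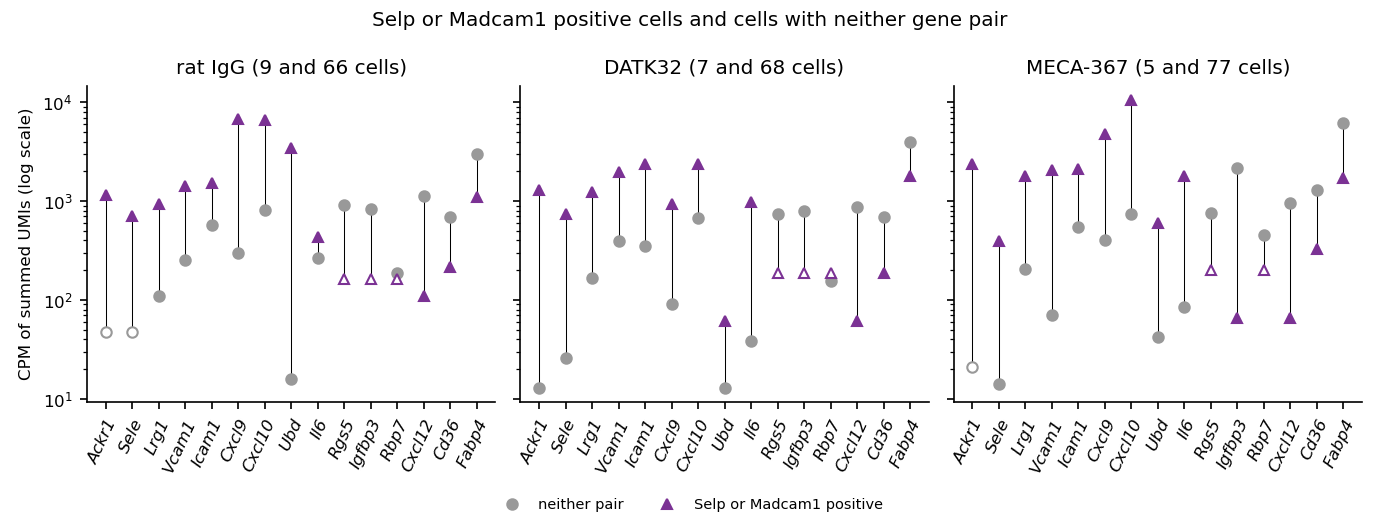
The vertical axis gives CPM of summed UMIs on a log scale, with 1 panel per library; triangles are Selp or Madcam1 positive cells and circles are cells with neither gene pair, joined for each gene. Open symbols stand for 0 UMIs and are drawn at the level of 3 counts; Ackr1, Vcam1, Cxcl9 and Cxcl10 lie above the other cells in all 3 libraries, and Igfbp3, Cxcl12 and Fabp4 lie below.

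Of 8 genes listed for high endothelial venules, Glycam1, Chst4 and Fut7 had 0 UMIs in the endothelial cells of all 3 libraries. Upper limits for a count of 0 were 45.1, 38.3 and 21.6 CPM in rat IgG, DATK32 and MECA-367. Lower levels were not detectable at this depth. The list was not absent as a whole, with 25, 10 and 100 summed UMIs in 12, 9 and 20 cells. Ccl21a, also a lymphatic gene, held 5, 0 and 77 of them.

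For comparisons between libraries, UMIs were summed over the endothelial cells of each library. A gene was measured with at least 50 UMIs over the 3 libraries, and was called higher or lower at a ratio of at least 1.5 with intervals apart. Apart refers to the Poisson intervals of the 2 libraries, so the bracket of a log2 ratio can leave out 0 without a call. Of 1154 measured genes, 25 were higher and 22 lower in DATK32 against rat IgG (4.07% either way), 33 were higher and 49 lower in MECA-367 against rat IgG (7.11%), and 69 were higher and 24 lower in DATK32 against MECA-367 (8.06%). Rat IgG is the control in the first pair of comparisons, so one unusual control library would move both. The median log2 ratio over all measured genes was -0.10 for MECA-367 against rat IgG, and 0.17 after scaling with TMM factors. That scaling turned the split of 33 higher and 49 lower into 83 and 21, and without the barcodes of mixed RNA it was 42 and 33. For DATK32 against MECA-367, TMM gave 41 higher and 64 lower, and without the mixed barcodes 51 and 41 were higher and lower. For DATK32 against rat IgG, TMM gave 35 and 18. The balance of higher and lower calls thus depended on the scaling.

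General endothelial genes gave 1 call. Of 19 measured, Cldn5, a tight junction protein, was higher in DATK32 than in rat IgG, beside 2.17% of all measured genes. No gene was called in the other comparisons. Cldn5 had 11, 36 and 36 UMIs in rat IgG, DATK32 and MECA-367, or 135, 374 and 211 CPM, so rat IgG was low and only the DATK32 interval was apart from it (log2 ratio 1.39 [0.47 to 2.60]). Pecam1 stood at 1076, 1318 and 1019 CPM with overlapping intervals. None of the 13 measured genes of VEGF, angiopoietin and BMP signalling was called in any comparison. Of all measured genes, 4.07%, 7.11% and 8.06% were called either way in the 3 comparisons. At such shares, few or no calls in lists of 19 and 13 genes do not set these lists apart from the rest.

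Several capillary genes were higher in MECA-367. Of 14 listed genes 6 were measured, and 4 were called higher against rat IgG, beside 2.86% of all measured genes called higher. The median log2 ratio of the 6 was 1.02, beside -0.10 over all measured genes. Against rat IgG, DATK32 had 0 of the 6 called in either direction and a median of 0.01, beside -0.0025 over all measured genes. In DATK32 against MECA-367, 3 of the 6 were lower (Rgcc, Cd36 and Rbp7), beside 2.08% of all measured genes.

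Cd36, the fatty acid translocase of capillaries (chr5:17781690-17888801, minus strand, GRCm38), had 48, 57 and 197 UMIs in rat IgG, DATK32 and MECA-367, or 587, 592 and 1154 CPM. MECA-367 was high, its interval was apart from both others, and the log2 ratio was 0.95 [0.51 to 1.46] against rat IgG and 0.01 [-0.57 to 0.60] for DATK32. A Cd36 UMI was found in 40.0%, 39.5% and 65.5% of cells, and in 28.0%, 26.3% and 42.5% after thinning to 500 UMIs. In stromal barcodes the share was 0.725% to 3.53%, highest in MECA-367 there too, and in leukocyte barcodes at most 0.693%.

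Fabp4 (chr3:10204088-10208576, minus strand, GRCm38) had 210, 354 and 935 UMIs in rat IgG, DATK32 and MECA-367, or 2568, 3674 and 5475 CPM. All 3 intervals were apart, with rat IgG lowest and MECA-367 highest, and the log2 ratio to rat IgG was 0.51 [0.27 to 0.77] in DATK32, under the 1.5-fold limit, and 1.09 [0.87 to 1.32] in MECA-367. Rgcc, a cell cycle regulator that marks gut capillaries, had 22, 35 and 136 UMIs, or 269, 363 and 796 CPM; MECA-367 alone stood apart (1.51 [0.91 to 2.29]). Rbp7, a retinol-binding protein of capillaries, had 12, 12 and 66 UMIs, or 147, 125 and 386 CPM, and again MECA-367 alone stood apart (1.30 [0.50 to 2.42]).

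The other 2 measured capillary genes were not called. Cd300lg, a capillary mucin-like receptor, was at 122, 125 and 205 CPM, and Ehd4, an endocytosis protein, at 746, 612 and 474 CPM. Gpihbp1, which anchors lipoprotein lipase on capillaries, had too few UMIs to be measured, with 5, 5 and 32. Aqp1 of the same list was also too sparse and did not share that direction. It had 9, 9 and 2 UMIs in the venular cells of rat IgG, DATK32 and MECA-367, and 0, 12 and 3 in cells with neither gene pair. The calls for Cd36, Fabp4, Rgcc and Rbp7 held with TMM factors, without the mixed barcodes and in cells with neither gene pair, where Ehd4 was called lower in MECA-367. In the barcodes that were not endothelial Fabp4 was at 12.4, 18.4 and 29.1 CPM, Cd36 at 2.33, 2.65 and 6.27, and Rgcc at 49.6, 54.9 and 93.7, each also highest in MECA-367. The part of RNA from outside the cells in the difference was not tested.

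Outside the list, Igfbp3 and Tgfbr2 were also highest in MECA-367. Igfbp3 had 53, 61 and 310 UMIs in rat IgG, DATK32 and MECA-367, or 648, 633 and 1815 CPM, with MECA-367 apart from both others and a log2 ratio of 1.46 [1.06 to 1.93] against rat IgG. Tgfbr2, a TGF-beta receptor, had 22, 46 and 126 UMIs, or 269, 477 and 738 CPM, and was called in MECA-367 (1.40 [0.79 to 2.18]) and not in DATK32 (0.79 [0.07 to 1.63]). Tgfbr2 was chosen after its values were seen.

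**Figure D3:**
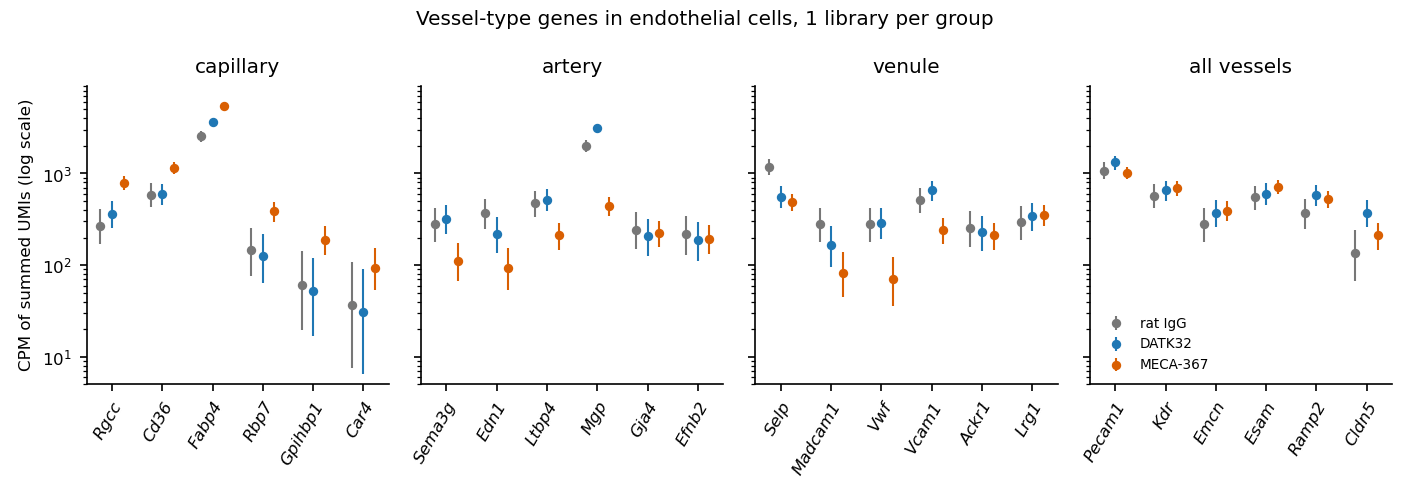
Points give CPM of the summed UMIs of endothelial cells on a log axis, with exact 95% Poisson intervals, for genes of capillaries, arteries, venules and all vessels in the 3 libraries. In MECA-367 Rgcc, Cd36, Fabp4 and Rbp7 lie above rat IgG, Sema3g, Edn1, Ltbp4, Mgp, Selp, Madcam1, Vwf and Vcam1 lie below it, and Pecam1 lies level. Mgp is drawn in the artery panel but is on the fibroblast list and not on the arterial list. The capillary panel is a choice from its list and leaves out other members, among them Aqp1 and Ehd4, which was lowest in MECA-367.

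Part of the arterial list was lower in MECA-367. Of 14 listed, 11 were measured and 3 were called lower against rat IgG, beside 4.25% of all measured genes called lower, with a list median of -0.39. In DATK32 against MECA-367, 4 were higher, beside 5.98%. Edn1 (endothelin 1, a vasoconstrictor) had 30, 21 and 16 UMIs in rat IgG, DATK32 and MECA-367, or 367, 218 and 93.7 CPM; MECA-367 was lowest and apart from rat IgG (-1.93 [-2.94 to -1.05]). Edn1 stood at 565, 446 and 230 CPM outside the endothelium, in the same order; the part of RNA from outside was not tested. Sema3g, an arterial semaphorin, had 23, 31 and 19 UMIs, or 281, 322 and 111 CPM (-1.33 [-2.30 to -0.40]), and Ltbp4, a latent TGF-beta binding protein, had 39, 50 and 36, or 477, 519 and 211 CPM (-1.17 [-1.87 to -0.49]). With TMM factors Edn1 alone kept its call. The arterial connexin Gja4 was at 245, 208 and 222 CPM and Efnb2 (ephrin B2) at 220, 187 and 193 CPM, with overlapping intervals.

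Mgp, Fbln2 and Fbln5, which come from no single list, differed between the antibodies. Mgp, an inhibitor of BMP signals and calcification, had 164, 299 and 75 UMIs in rat IgG, DATK32 and MECA-367, or 2005, 3103 and 439 CPM. All 3 intervals were apart, with DATK32 high and MECA-367 low; the log2 ratio to rat IgG was 0.63 [0.35 to 0.91] in DATK32 and -2.18 [-2.61 to -1.79] in MECA-367, and that between DATK32 and MECA-367 was 2.81 [2.45 to 3.21]. The UMIs sat in 15, 25 and 7 cells, and 1 MECA-367 cell held 37 of the 75. Mgp is also a fibroblast gene, at 4403 to 7544 CPM in stromal barcodes, where Col1a1 and Col3a1 define the class. In the endothelial cells Lum and Col1a1 each had 0, 2 and 0 UMIs, but the rule itself limited Col1a1, so its low count was set in advance. The summed fibroblast list, which includes Mgp, was at 2177, 3363 and 761 CPM. Mgp gave 164 of its 178, 299 of its 324 and 75 of its 130 UMIs, so that sum mostly repeats Mgp. The part of stromal RNA in the Mgp difference was not tested.

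Fbln2 (fibulin 2) had 33, 43 and 21 UMIs, or 404, 446 and 123 CPM, with MECA-367 apart from both others (-1.69 [-2.58 to -0.88] against rat IgG). Fbln5 (fibulin 5), needed for elastic fibres, had 32, 75 and 49 UMIs, or 391, 778 and 287 CPM; here DATK32 was high (0.97 [0.38 to 1.64] against rat IgG) and MECA-367 was within the rat IgG interval. Fn1 (fibronectin) was at 379, 332 and 123 CPM and was called lower in MECA-367 (-1.60 [-2.50 to -0.78]). Of 10 measured basement membrane genes, Fn1 was the one called in MECA-367, beside 4.25% of all measured genes called lower. In DATK32, where that share was 1.91%, Col4a1 (-0.67 [-1.13 to -0.23]) and Sparc (-0.59 [-0.96 to -0.24]) were called lower, at ratios close to the limit, and both calls were lost with TMM factors.

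Several venular genes were lower in MECA-367. All Selp and Madcam1 UMIs lie in the cells counted above as venular, by definition. Of 7 measured venule genes, 4 were called lower in MECA-367 against rat IgG, where 4.25% of all measured genes were called lower, and 1 in DATK32, where 1.91% were. Lrg1 of that list was not called and ran the other way. In rat IgG, DATK32 and MECA-367 it was at 927, 1239 and 1791 CPM in venular cells. In cells with neither gene pair it was at 110, 168 and 204 CPM. Selp (chr1:164115264-164150026, plus strand, GRCm38) had 97, 54 and 83 UMIs in rat IgG, DATK32 and MECA-367, or 1186, 560 and 486 CPM, so rat IgG was high and apart from both antibodies (-1.07 [-1.59 to -0.59] and -1.28 [-1.73 to -0.85]). Madcam1 (chr10:79664559-79668537, plus strand, GRCm38), the antigen of MECA-367, had 23, 16 and 14 UMIs in 6, 5 and 3 cells, or 281, 166 and 82.0 CPM. Rat IgG and MECA-367 were apart (-1.74 [-2.85 to -0.76]) and DATK32 overlapped both.

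Counted within the venular cells alone, the MECA-367 ratio to rat IgG was 0.06 for Selp and -0.40 for Madcam1, on the log2 scale and with neither called. Vwf (von Willebrand factor) had 23, 28 and 12 UMIs in 15, 18 and 8 cells, or 281, 291 and 70.3 CPM; MECA-367 was low against both others (-1.95 [-3.14 to -0.93] against rat IgG). Vcam1 had 42, 63 and 41 UMIs in 19, 15 and 8 cells, or 514, 654 and 240 CPM, with MECA-367 again low (-1.10 [-1.75 to -0.44]); in cells with neither gene pair its ratio was -1.79, and in venular cells 0.53. The Vcam1 call was lost with TMM factors (-0.82) and without the mixed barcodes (-0.89).

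Other adhesion genes were not called. Icam1 was at 783, 675 and 673 CPM in rat IgG, DATK32 and MECA-367 with overlapping intervals, and Ackr1 at 257, 228 and 211 CPM. Sele had 13, 14 and 8 UMIs and was too sparse to be measured. Of 12 measured leukocyte adhesion genes, 3 were called lower in MECA-367 and 1 in DATK32 against rat IgG, all named above, beside 4.25% and 1.91% of all measured genes.

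Over all endothelial cells, Cxcl9 and Cxcl10 were highest in rat IgG. Cxcl9 had 144, 29 and 139 UMIs in 12, 10 and 9 cells of rat IgG, DATK32 and MECA-367, or 1761, 301 and 814 CPM, with all 3 intervals apart. The log2 ratio to rat IgG was -2.51 [-3.18 to -1.97] in DATK32 and -1.11 [-1.46 to -0.77] in MECA-367, and that of DATK32 without the single highest cell was -1.76. In cells with neither gene pair the MECA-367 ratio was 0.40, on the other side of 0. Cxcl10 had 174, 101 and 266 UMIs, or 2128, 1048 and 1558 CPM. It was called lower in DATK32 (-1.02 [-1.39 to -0.66]) and not called in MECA-367, and in cells with neither gene pair the DATK32 ratio was -0.26. In the 9, 7 and 5 venular cells Cxcl10 was at 6652, 2353 and 10478 CPM, there highest in MECA-367. Ubd had 64, 2 and 15 UMIs, or 783, 20.8 and 87.8 CPM, and rat IgG was high and apart from both. Outside the endothelium rat IgG was lowest and MECA-367 highest, with Cxcl9 at 117, 181 and 242 CPM and Cxcl10 at 293, 540 and 959 CPM. In rat IgG 86.8% of Cxcl9, 70.1% of Cxcl10 and 98.4% of Ubd UMIs lay in the 9 venular cells.

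Isg15, a ubiquitin-like product of type I interferon signalling, ran the other way. It had 18, 53 and 82 UMIs in 12, 22 and 44 cells of rat IgG, DATK32 and MECA-367, or 220, 550 and 480 CPM; rat IgG was low, and the ratios were 1.27 [0.53 to 2.18] and 1.06 [0.38 to 1.95]. It was the one gene called among 25 measured interferon-stimulated genes in each comparison with rat IgG, beside 2.17% of all measured genes called higher in DATK32 and 2.86% in MECA-367. With TMM factors 4 were called higher in MECA-367, beside 83 of all 1154 measured genes. In cells with neither gene pair, 4 of 22 were called higher in DATK32 and 3 in MECA-367. Of all 897 genes measured in those cells, 19 and 22 were called higher. Isg15 was also lowest in rat IgG outside the endothelium, at 65.5, 114 and 209 CPM.

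Of 3 measured class II antigen presentation genes, 2 were called lower with each antibody, beside 1.91% of all measured genes in DATK32 and 4.25% in MECA-367. Cd74, the class II invariant chain, had 75, 41 and 70 UMIs in rat IgG, DATK32 and MECA-367, or 917, 426 and 410 CPM, with rat IgG apart from both (-1.09 [-1.69 to -0.54] and -1.16 [-1.65 to -0.67]). H2-Aa, a class II alpha chain, had 28, 12 and 23 UMIs, or 342, 125 and 135 CPM, and was called lower in both, although the MECA-367 call was lost with TMM factors (-1.06); H2-Ab1, its beta chain, was at 220, 208 and 135 CPM with overlapping intervals. One rat IgG cell held 23 of the 75 Cd74 UMIs, and without it the DATK32 ratio was -0.61; 1 held 10 of the 28 H2-Aa UMIs, and without it the MECA-367 ratio was -0.76. Cd74 was at 894, 597 and 920 CPM outside the endothelium, and the part of RNA from outside was not tested.

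Some immediate-early and heat shock genes, which also answer to tissue dissociation, were higher in MECA-367. Of 20 measured, 9 were called higher against rat IgG (2.86% of all measured genes) with a median of 0.65, and 3 in DATK32 (2.17% of all measured genes) with a median of 0.42. Fos, a subunit of AP-1, had 184, 297 and 701 UMIs in rat IgG, DATK32 and MECA-367, or 2250, 3082 and 4105 CPM, with all 3 intervals apart and a log2 ratio of 0.86 [0.63 to 1.11] for MECA-367. In the other kept barcodes Fos was at 2179, 2259 and 1990 CPM, without that order. In cells with neither gene pair, 1 of 19 measured genes of the list was called higher in MECA-367, beside 22 of all 897. With TMM factors 14 were called higher, beside 83 of 1154, and without the mixed barcodes 11 were, beside 42 of 1092. The part of handling or depth in this difference was not tested.

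Among called genes that passed the filters on counts, share of cells and level outside the endothelium, the 5 largest changes each way were named. For DATK32 against rat IgG they were Tomm7 (1.28), Isg15, Fbln5, Socs3 (0.90) and Tagln2 (0.85) among the higher, and Cxcl9, Rbm3 (-1.20), Thbs1 (-1.10), Anxa2 (-1.10) and Cd74 among the lower. Socs3, a feedback inhibitor of cytokine signalling, had 34, 76 and 84 UMIs in rat IgG, DATK32 and MECA-367, or 416, 789 and 492 CPM, so DATK32 was high. Thbs1 (thrombospondin 1), an inhibitor of vessel growth, was at 990, 457 and 673 CPM, lowest in DATK32.

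For MECA-367 against rat IgG they were Scgb3a1 (2.24), Mt2 (1.86), Rgcc, Igfbp3 and Pkp4 (1.46) among the higher, and Mgp, Fbln2, Fn1, Tnfaip2 (-1.36) and H2-Aa among the lower. The Tnfaip2 call was lost with TMM factors (-1.09), as was that of H2-Aa. Scgb3a1, a secreted secretoglobin, had 5, 18 and 58 UMIs in 3, 9 and 28 cells of rat IgG, DATK32 and MECA-367, or 61.1, 187 and 340 CPM, and at most 0.605 CPM in other barcodes. Mt2 (metallothionein 2) rested on few cells: without its highest cell the ratio was 0.92.

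Between the antibodies, DATK32 was higher for Mgp, Fbln2, Tnfaip2 (1.83), Sema3g (1.50) and Vcam1 (1.43), and lower for Stc1 (-2.17), Ednrb (-2.03), Rbp7 (-1.54), Igfbp3 (-1.50) and Cxcl9 (-1.40). Ednrb (endothelin receptor B) had 18, 7 and 57 UMIs in rat IgG, DATK32 and MECA-367, or 220, 72.7 and 334 CPM, with DATK32 lowest and apart from MECA-367 while its interval overlapped that of rat IgG. Stc1 (stanniocalcin 1) had 11, 5 and 47 UMIs, or 135, 51.9 and 275 CPM, and the same pair was apart.

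**Figure D4:**
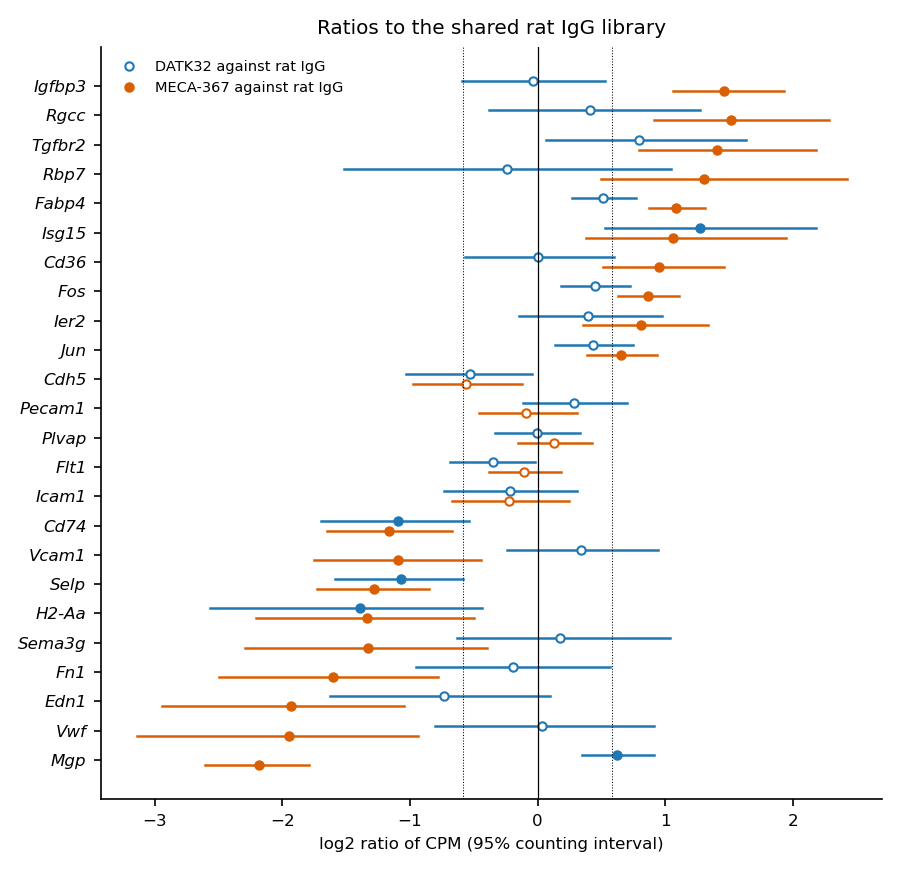
Log2 ratios of CPM to the shared rat IgG library for DATK32 and MECA-367, with exact 95% counting intervals; filled points passed a ratio of 1.5 with intervals apart, and dotted lines mark that ratio. Igfbp3, Rgcc, Rbp7, Fabp4 and Cd36 are filled for MECA-367 only, Isg15, Cd74, Selp and H2-Aa for both, and Mgp lies on opposite sides of 0.

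The capillary and arterial marker genes were also counted cell by cell. Among the cells with neither gene pair, a UMI of the capillary markers without one of the arterial markers was found in 17 of 66 in rat IgG, 20 of 68 in DATK32 and 28 of 77 in MECA-367 (25.8%, 29.4% and 36.4%). The reverse was found in 16, 19 and 11 cells (24.2%, 27.9% and 14.3%), and UMIs of both sets in 20, 22 and 35. Over all endothelial cells, any arterial marker had a UMI in 52.0%, 55.3% and 58.6%, highest in MECA-367, so the lower share of cells with arterial markers alone does not show fewer cells with arterial markers. Cells with neither set numbered 13, 7 and 3, fewest in the deepest library, so these shares move with depth as well.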

How the data were processed

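Per the labels' protocols, viable CD45-positive colonic lamina propria cells were sorted, made into 10x 3' v3.1 libraries and sequenced together. Per the submitters' processing notes the authors used Cell Ranger 6.0.2 with mm10; the annotation and strand setting are not given in the sources used here. The deposited matrices hold UMI counts for 32285 genes, whole numbers that were taken as not normalized. Counts of the cells taken were summed per library and scaled to CPM of the sum. Log2 ratios of genes between libraries add 1 count to each side. Those of venular against other cells, and of endothelial shares, add none. Free RNA from other cells was not removed. Gene coordinates are those of GENCODE M21 on GRCm38. Named genes are the 5 highest and 5 lowest ratios per comparison among called genes with 50 counts over both libraries, and, in the higher library, a UMI in 10% of cells and a CPM at least that of the other barcodes, plus genes of the lists; mitochondrial, ribosomal, antigen receptor and unnamed genes were left out. The cell rule, the gene lists and the named rule were written with earlier results of these data known. Doublets were scored with Scrublet in scanpy 1.11.5; TMM came from edgeR 4.0.16; intervals from scipy 1.17.1. On simulated counts at the real totals, 0.629% to 0.734% of genes without a difference were called, from counting error alone. PCR copies are collapsed by UMI, and intervals cover neither animals nor cells.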

Additional observations from a re-analysis of the deposited data

How the results depend on the processing

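No paired analysis was possible because each group is 1 library, and for the same reason no replicate could be left out. The settings that leave out mixed barcodes, thin the subsets to 500 UMIs or leave out cells with mural UMIs were chosen after seeing the data. Depth limits the shares: the endothelial share in rat IgG, DATK32 and MECA-367 was 1.64%, 2.03% and 2.12% at 5% mitochondrial UMIs, 0.720%, 0.912% and 1.07% of every deposited barcode, and 1.36%, 1.77% and 2.40% of barcodes without Ptprc. At 1000 UMIs and 500 genes it was 0.564% and 0.851% in rat IgG and DATK32, thinned to 1000 UMIs 0.570% and 0.858%, and with 5 marker UMIs 0.787% in rat IgG. The log2 ratio of shares for MECA-367 against rat IgG was then 1.36 at 1000 UMIs and 1.16 thinned, and that of DATK32 against MECA-367 was -0.77 at 1000 UMIs. The venular share in rat IgG was 33.3% at 1000 UMIs and 28.6% thinned before the rule, and the lymphatic share in MECA-367 was 1.67% thinned. Genes called for DATK32 against rat IgG were 47, and 28 thinned, 20 in venular cells and 26 in cells with neither pair. For MECA-367 against rat IgG they were 82 and 28 in venular cells, and for DATK32 against MECA-367 93, and 40 thinned, 146 with no minimum of counts and 22 in venular cells; fewer cells and genes enter the smaller counts. In venular cells alone, 5 to 9 per library, ratios of MECA-367 to rat IgG changed side for Rgcc (-1.72), Mgp (0.65), Fn1 (1.28), H2-Aa (0.55), Sema3g (0.28), Vcam1 (0.53), Selp (0.060) and Cd74 (0.051). So did H2-Aa in DATK32 (0.45), and DATK32 against MECA-367 for Mgp (-0.18), Fbln2 (-0.68), Sema3g (-1.10) and Vcam1 (-0.054). Mt2 was -0.45 thinned and Cxcl9 0.40 in cells with neither pair. Ccl21a, with 77 UMIs in 2 MECA-367 cells and 5 in 1 rat IgG cell, was at 2.64 and changed side: -3.77 with 5 marker UMIs, -3.64 without Podxl, -3.54 without the highest doublet scores, -3.42 thinned, -3.51 without lymphatic cells and -2.30 in venular cells. The cause of these changes was not tested. Among single-gene ratios under the alternatives, 907 moved by less than their counting interval, 62 moved further and 21 changed side.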

Other observations

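Barcodes over the 10% mitochondrial limit were looked at by the same marker rule: 3 of 3442 in rat IgG, 1 of 2578 in DATK32 and 3 of 2428 in MECA-367 met it, and none of them had a UMI of Selp or Madcam1. Fabp4 had 2, 11 and 30 UMIs in them.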
